A study of Bos taurus with 12 samples.

Results

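The genes described here take up glucose, break it down to pyruvate and lactate, store it as glycogen, and control the entry of pyruvate into mitochondria. They were chosen by name, from 38 symbols for glucose carriers, glycolytic enzymes, lactate and pyruvate genes and glycogen genes. Of these, 35 have a row among the 24616 genes of the deposited table, and ENO1, DLAT and PKM were not found as symbols in it and were not analysed here. The row named PKM2 was used for muscle-type pyruvate kinase. PKM2 is an older symbol of the whole PKM gene, and the files do not tell which splice form its reads came from. RNA was sequenced from the right ventricle of 12 wild-type Angus steers, 1 library per animal, to compare cattle that tolerate high altitude with cattle that develop pulmonary hypertension there. All the steers were born and raised on grass hay with grain at 2170 m (7120 ft), so every group, the controls included, lived in chronic hypoxia. They were castrated at 6 to 8 months and slaughtered at 13 to 15 months. Pulmonary artery pressure (PAP), measured by repeated right heart catheterization, and clinical signs put 6 animals in the hypoxia-tolerant low-PAP group, 3 in the group with high PAP and a healthy heart (PH-healthy) and 3 in the group with high PAP and right heart failure (PH-failure). No animals kept at low altitude are part of these comparisons.

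Glycolysis splits glucose into pyruvate in the cytosol and yields ATP without oxygen. Most of its steps have several enzyme forms encoded by separate genes, with a muscle form that dominates in striated muscle and forms that are more widespread. The adult heart draws most of its ATP from fatty acids and also oxidizes glucose and lactate, and pyruvate enters oxidation through the mitochondrial pyruvate dehydrogenase complex, which is switched off by kinases (PDK) and on by phosphatases (PDP).

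Values are RPKM, reads per kilobase of exon, scaled to the mapped reads of a library, so levels of different genes can be set side by side per length. In the low-PAP group LDHB (the heart form of lactate dehydrogenase) was the most abundant at 2465 ± 368 RPKM (SD, n = 6). It was followed by GAPDH at 2028 ± 176, ENO3 (the muscle enolase) at 925 ± 117, ALDOA (the muscle aldolase) at 881 ± 38.6 and TPI1 (triose phosphate isomerase) at 495 ± 57.8 RPKM. At the other end stood PC (pyruvate carboxylase) at 0.685 ± 0.397, SLC16A3 (a lactate exporter) at 0.674 ± 0.183, HK2 (the second muscle hexokinase) at 0.151 ± 0.0546 and PFKFB1 at 0.0363 ± 0.0603 RPKM. Together the genes held 1.59 to 1.92% of the exon reads of a library.

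Libraries held 14739237 (PH-failure replicate 1) to 31090198 (low-PAP replicate 5) mapped reads, recovered from the steps of the RPKM values. A library had a median of 4815.5 reads in each of the 32 tested genes of the set, against 370 in each of all 11374 tested genes, so that counting error was small for most of them. Genes of the mitochondrial genome took 22.5 to 29.9% of exon reads in low-PAP libraries, 18.3 to 20.7% in PH-healthy and 17.8 to 20.3% in PH-failure libraries. PH-failure replicate 3 stood apart from all other libraries. It held the highest or the lowest of the 12 values in 18 of the 35 genes (6 highest, 12 lowest), where the other libraries did so in 2 to 11. PH-failure replicate 1 was next, with the highest value in 11 genes and the lowest in none. Such extremes were not counted over all tested genes. On the second principal component of all tested genes PH-failure replicate 3 also lay apart, at 37.2 against -12.1 to 5.70 in the other libraries.

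The tissue label was checked against defining genes of heart muscle and of other cell types. All 14 cardiomyocyte markers had a row, and their summed level was 80285 to 102960 RPKM in low-PAP, 82970 to 91215 in PH-healthy and 59881 to 90738 in PH-failure libraries, with the lowest sum in PH-failure replicate 3. The 10 fibroblast markers summed to 880 to 1132 RPKM at low PAP, 858 to 1477 in PH-healthy and 1178 to 1847 in PH-failure libraries, and this order of the groups is kept below. The 10 macrophage markers summed to 51.8 to 79.1, 72.3 to 102.7 and 70.0 to 198.5 RPKM, with the highest sum in PH-failure replicate 3. That library also had the highest sum of the 7 adipocyte markers with a row (of 10 listed), at 1650 RPKM against 409 to 755 in low-PAP, 434 to 641 in PH-healthy and 542 to 638 in the other PH-failure libraries. Its 6 red blood cell markers with a row (of 9; CA1 at 0) summed to 70.0 RPKM against 1.80 to 9.30 in all other libraries. The 10 endothelial markers summed to 101 to 193, 165 to 191 and 193 to 226 RPKM, and the 10 smooth muscle and pericyte markers to 235 to 343, 265 to 294 and 264 to 456 RPKM. The atrial muscle list differed between the groups in its summed level. Its 5 genes with a row (of 6; BMP10 at 0) summed to 3089 to 6778 RPKM at low PAP, 543 to 879 in PH-healthy and 430 to 1843 in PH-failure libraries, with no overlap between low PAP and either PH group. Nearly all of it was MYL7, the atrial light chain, at 3065 to 6738, 486 to 801 and 403 to 1560.5 RPKM. NPPA (atrial natriuretic peptide), at 11.4 to 100.7, 45.9 to 80.8 and 13.0 to 246 RPKM, and MYL4 overlapped between the groups. NR2F2 had 2.74 to 4.26, 3.45 to 5.22 and 5.13 to 6.10 RPKM. It was higher in every PH-failure library than in every low-PAP library. The mean log2(RPKM + 1) of the atrial list overlapped between the groups, at 3.78 to 5.03, 3.95 to 4.40 and 3.67 to 5.26. The difference in the sum was thus that of MYL7. The 10 T cell markers summed to 18.8 to 28.0, 12.3 to 21.2 and 10.1 to 20.9 RPKM. What part these cell types had in the values below was not tested beyond a fit with the adipocyte marker score as a term. In tissue RNA, fewer cells of a type and less RNA per cell cannot be told apart.

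In failing ventricles HK1, PFKL, PFKFB3, PKM2, LDHA and GYS1 were higher and PGAM2, LDHB and PDHB lower than at low PAP. In PH-healthy ventricles HK1, PKM2, SLC16A1 and GYS1 were higher and PGAM2 and PDHB lower. A gene counts as changed where the Benjamini-Hochberg adjusted p over all 11374 tested genes, from limma on log2(RPKM + 1), was under 0.05. The 32 tested genes include 9 changed in PH-failure (28.1%), against a background of 33.8% of all tested genes. The 6 higher (18.8%) compare with 28.0% of all tested genes, and the 3 lower (9.38%) with 5.79%. In PH-healthy ventricles 6 of 32 changed (18.8%), 4 higher (12.5%) and 2 lower (6.25%), where the background was 34.7%, 26.6% and 8.15%. The PH-healthy count fell to 3 without low-PAP replicate 3 or 4 or without PH-healthy replicate 1 or 2, and adding the adipocyte marker score to the model left 2, and 5 in PH-failure. No share of all tested genes is given for these alternatives. In the main fit the share changed in either direction, and the share higher, were below those of all genes in both comparisons. The share lower was above that of all genes in PH-failure, on 3 genes, and below it in PH-healthy. Shares near or below those of all genes are no result about the set. Sorted by role, changed genes lay in 6 of 7 roles in PH-failure and in 5 of 7 in PH-healthy, with 0 among the glucose carriers in both. Groups did not overlap for 6 genes in PH-failure and 7 in PH-healthy, where 22.3% and 34.3% of all tested genes did not. The 4 that lay wholly higher (12.5%) and 2 wholly lower (6.25%) in PH-failure compare with 18.6% and 3.74% of all tested genes. The 5 (15.6%) and 2 (6.25%) in PH-healthy compare with 25.0% and 9.30%. The median log2 fold change of the set was 0.08 in PH-failure and 0.08 in PH-healthy ventricles, and that of all tested genes 0.21 and 0.18. Both comparisons share the 6 low-PAP libraries, so their values are set side by side below and are not independent of each other.

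The split into higher and lower calls depends on how libraries are scaled, since the median of all genes moved from 0.21 to -0.03 (PH-failure) and from 0.18 to -0.04 (PH-healthy) with quantile normalization. After it the set held 3 higher and 2 lower genes in PH-failure, and 5 higher and 1 lower in PH-healthy ventricles. With median-ratio scaling the counts were 2 higher and 5 lower in PH-failure, and 2 higher and 3 lower in PH-healthy. The shares of all tested genes called under these scalings are not given, so these counts are no result about the set. No changed gene turned its direction under quantile, median-ratio or non-mitochondrial scaling. Low-PAP, PH-healthy and PH-failure libraries came from 2 series of library names, 55 and 56, run in separate lanes. All 9 genes changed in PH-failure and all 6 changed in PH-healthy ventricles moved the same way within each series. These genes were picked on the same libraries, and where groups do not overlap the direction within a series is fixed. The agreement is thus no check on the series. The smallest were HK1 and GYS1 in PH-failure, at 0.19 and 0.23 on the log2 scale in series 55, which holds PH-failure replicate 3 alone of that group, against 0.69 and 1.05 in series 56.

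**Figure D1:**
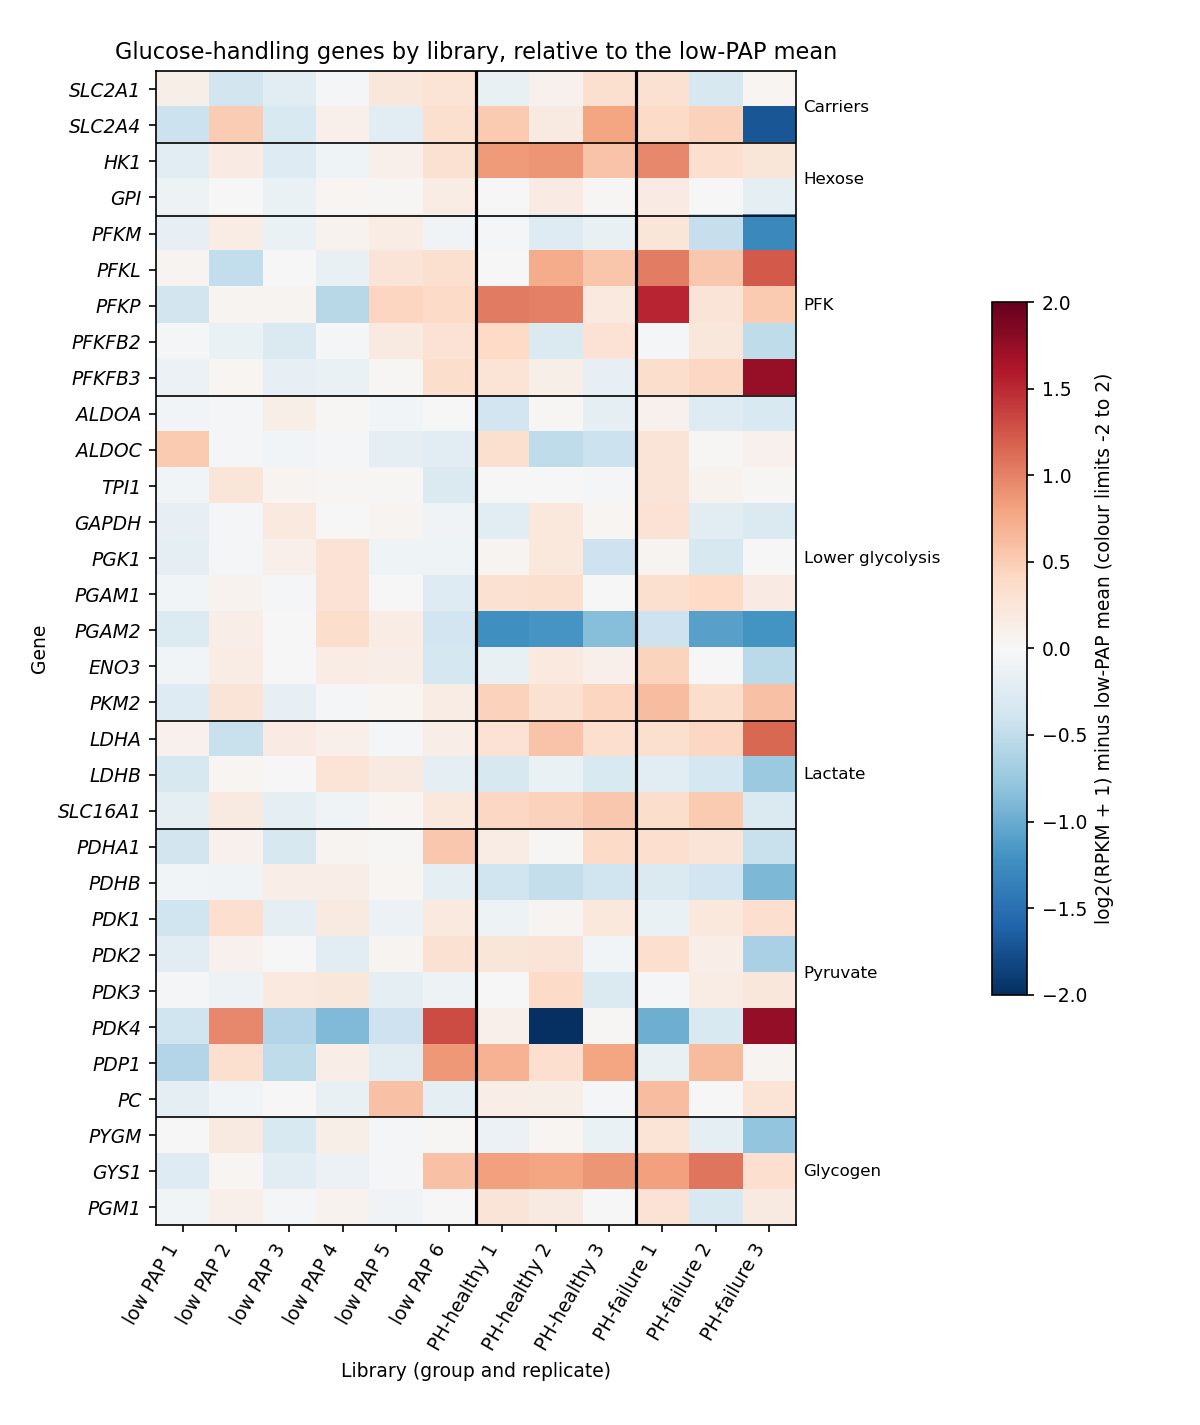
Rows are the 32 tested genes in order of their role, columns the 12 libraries, and the colour is log2(RPKM + 1) minus the low-PAP mean of the gene, limited to -2 and 2. The PGAM2 row is blue in all 6 PH libraries, and PH-failure replicate 3, the last column, is deep blue for SLC2A4 and PFKM and deep red for PFKFB3, LDHA and PDK4. Only PDK4 in PH-healthy replicate 2 reaches a colour limit.

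**Figure D2:**
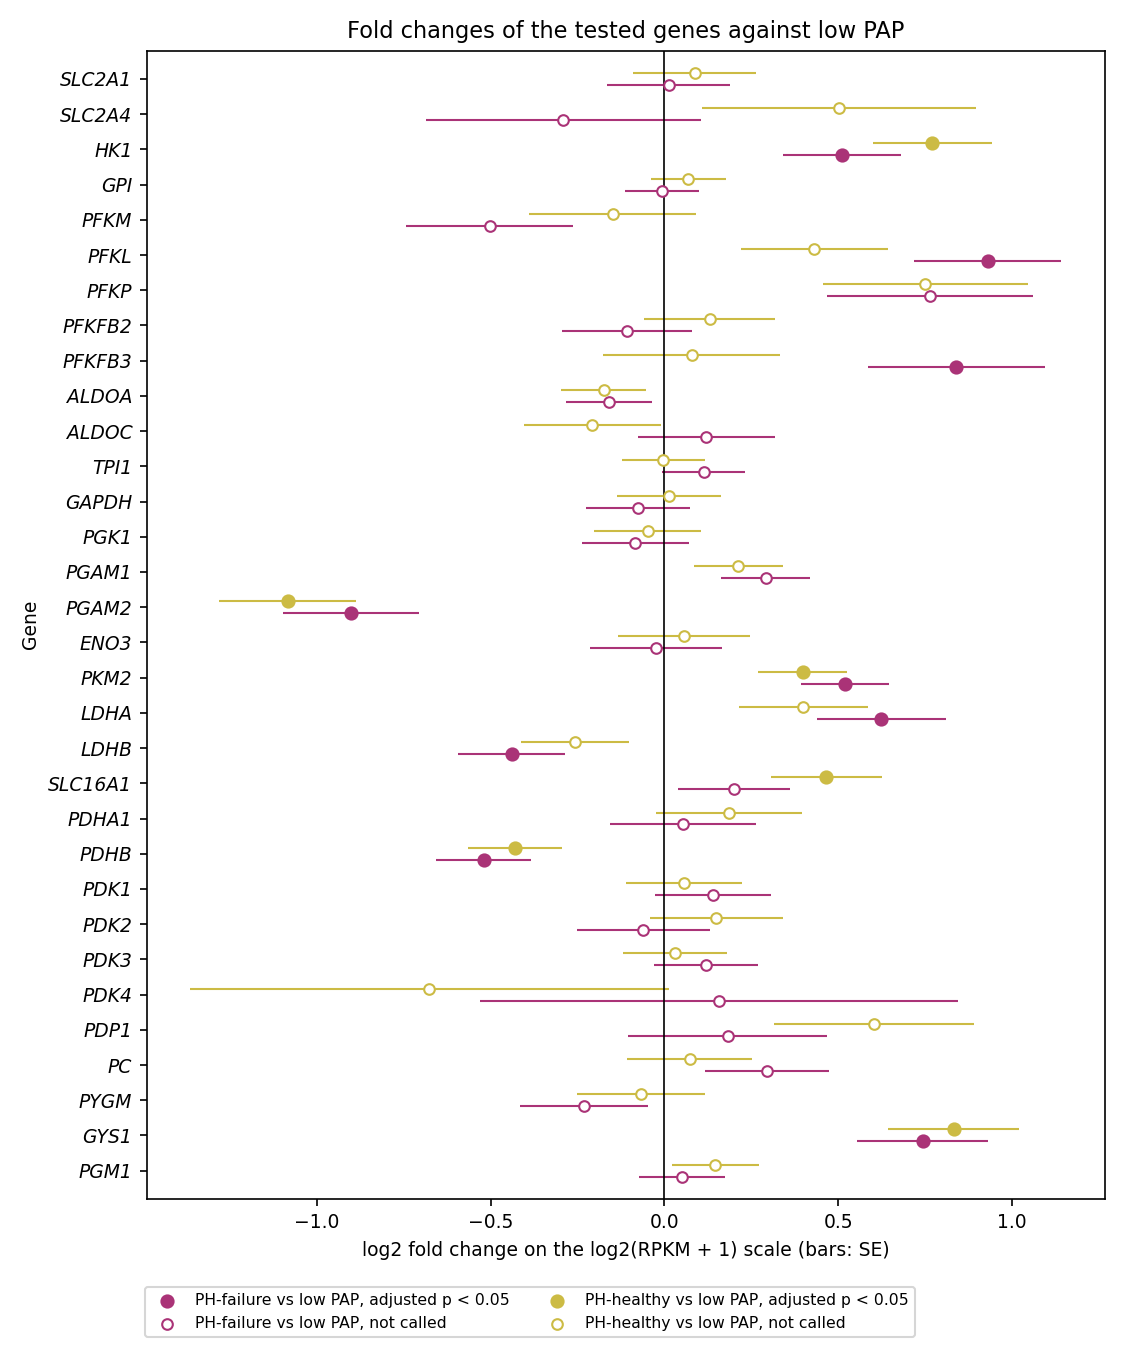
Each point is the log2 fold change of a gene against low PAP on the log2(RPKM + 1) scale with its SE, for PH-failure and PH-healthy. Filled points passed an adjusted p of 0.05 (9 in PH-failure, 6 in PH-healthy). PGAM2 lies farthest to the left among them in both groups, and most of the remaining points lie within their error of 0.

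Glucose enters the cell through carriers of the SLC2A family. The insulin-regulated carrier of muscle, SLC2A4 (GLUT4), had 22.4, 29.8 and 44.0 RPKM as the lowest, median and highest of the low-PAP libraries. It had 44.6, 35.0 and 53.9 RPKM in PH-healthy and 40.2, 42.5 and 8.65 RPKM in PH-failure replicates 1, 2 and 3. The first 2 failing ventricles lay inside the PH-healthy range, and the third held the lowest level of all 12. Neither PH-healthy (log2 fold change 0.50, SE 0.40, limma adjusted p = 0.335) nor PH-failure (-0.29, SE 0.40, adjusted p = 0.581) passed the test, and the value in PH-failure was 0.42 without replicate 3. The basal carrier SLC2A1 (GLUT1) had 1.59, 2.47 and 3.08 RPKM as the lowest, median and highest at low PAP, 2.04, 2.57 and 3.18 RPKM in PH-healthy and 3.16, 1.70 and 2.46 RPKM in PH-failure replicates. Its groups overlapped throughout, and the 95% intervals of its log2 fold change were -0.37 to 0.39 in PH-failure and -0.29 to 0.47 in PH-healthy ventricles.

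Hexokinase traps glucose in the cell as glucose 6-phosphate. HK1 (chromosome 28, 25854740 to 25925054 in the table, of a genome build not stated; ENSBTAG00000012380), the widespread hexokinase, had 26.3, 32.0 and 39.4 RPKM as the lowest, median and highest at low PAP. The PH-healthy replicates had 58.0, 59.8 and 48.0 RPKM, and the PH-failure replicates 62.7, 40.3 and 37.8 RPKM. Every PH-healthy ventricle lay above every low-PAP one, and PH-failure replicate 3 lay inside the low-PAP range. HK1 rose in PH-healthy ventricles by a log2 fold change of 0.77 (SE 0.17, limma adjusted p = 0.00637), and this call was kept in all 23 alternatives. The rise in PH-failure was 0.51 (SE 0.17, adjusted p = 0.0367) and was lost in 14 of 23 alternatives (adjusted p 0.0192 to 0.233), among them leaving out PH-failure replicate 1 (0.29, adjusted p = 0.168). HK2, which insulin induces in muscle, was too low to be tested, with 9 to 22 reads in low-PAP libraries, 21, 11 and 18 in PH-healthy and 12, 17 and 78 in PH-failure replicates. The level in PH-failure replicate 3, 0.966 RPKM, was the highest, and no other library was above 0.275 RPKM. GPI, which turns glucose 6-phosphate into fructose 6-phosphate, had 188 to 229 RPKM at low PAP, 208 to 231 in PH-healthy and 182 to 230 in PH-failure libraries, with no test passed.

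Phosphofructokinase commits the sugar to glycolysis and is its main point of control. The muscle form PFKM was by far the most abundant of the 3 forms, with 345, 386 and 427 RPKM as the lowest, median and highest at low PAP. It had 373, 321 and 349 RPKM in PH-healthy and 456, 279.8 and 156 RPKM in PH-failure replicates, which thus held both the highest and the lowest level of all libraries. The log2 fold change of PFKM in PH-failure, -0.50 (SE 0.24), did not pass (limma adjusted p = 0.115), and 2 of 23 alternatives passed (0.00595 to 0.664 over all of them). The liver form PFKL (chromosome 1, 145770057 to 145797205; ENSBTAG00000010658) had 7.31, 11.02 and 13.7 RPKM as the lowest, median and highest at low PAP, 10.7, 18.6 and 16.3 RPKM in PH-healthy and 22.9, 16.0 and 26.6 RPKM in PH-failure replicates. All 3 failing ventricles lay above all low-PAP ones, while the PH-healthy ones overlapped both groups. PFKL rose 1.90-fold in PH-failure (log2 fold change 0.93, SE 0.21, adjusted p = 0.00862), a call kept in all 23 alternatives. In PH-healthy ventricles its log2 fold change was 0.43 (SE 0.21, adjusted p = 0.126). The platelet form PFKP had 6.76, 10.8 and 14.3 RPKM as the lowest, median and highest at low PAP, 22.4, 22.0 and 12.05 RPKM in PH-healthy and 31.6, 12.6 and 15.3 RPKM in PH-failure replicates. Both PH groups overlapped with low PAP in 1 or more libraries, and neither passed the test for PFKP (adjusted p = 0.0608 in PH-failure and 0.0643 in PH-healthy).

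The PFKFB enzymes make and remove fructose 2,6-bisphosphate, the strongest activator of phosphofructokinase. PFKFB2, the heart form, had 30.9, 37.2 and 46.6 RPKM as the lowest, median and highest at low PAP, 50.2, 30.8 and 46.3 RPKM in PH-healthy and 36.7, 44.7 and 26.2 RPKM in PH-failure replicates, with groups that overlapped. PFKFB3 (chromosome 13, 17380742 to 17406594; ENSBTAG00000008401), an inducible form with strong kinase activity, had 0.824, 0.992 and 1.62 RPKM as the lowest, median and highest at low PAP. It had 1.48, 1.22 and 0.840 RPKM in PH-healthy and 1.63, 1.73 and 5.86 RPKM in PH-failure replicates. The failing ventricles were all above the others, 2 of them by a small margin and replicate 3 by far. The rise in PH-failure (log2 fold change 0.84, SE 0.25, limma adjusted p = 0.0259) ended when replicate 3 was left out (0.39, adjusted p = 0.106; alternatives ranged from 0.0113 to 0.106). The call was also lost after quantile normalization (adjusted p = 0.106) and without low-PAP replicate 3 (0.0511). It was lost too with the adipocyte score (0.0678) or the replicate number (0.0901) as a term. In PH-healthy ventricles the log2 fold change was 0.08 (SE 0.25) and turned negative under quantile and median-ratio scaling. PFKFB1, the liver and skeletal muscle form, had 0 to 9 reads per library and 0 in 4 of the 12, so no fold is given.

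The lower part of glycolysis, from aldolase to pyruvate kinase, has the most abundant enzymes, and 7 of its 9 tested genes did not pass in either comparison. ALDOA had 845, 873 and 951 RPKM as the lowest, median and highest at low PAP, 675, 899 and 780.1 RPKM in PH-healthy and 930.1, 738 and 713 RPKM in PH-failure replicates. Its brain-type relative ALDOC had 1.62, 1.99 and 3.42 RPKM as the lowest, median and highest at low PAP, 2.86, 1.15 and 1.27 RPKM in PH-healthy and 2.66, 2.14 and 2.25 RPKM in PH-failure replicates. The groups overlapped for both aldolases. GAPDH, often used as a reference gene, had 1801, 2012 and 2322 RPKM as the lowest, median and highest at low PAP, 1745, 2339 and 2079 RPKM in PH-healthy and 2465, 1721 and 1660.2 RPKM in PH-failure replicates. Its log2 fold changes were -0.08 (SE 0.15, 95% interval -0.40 to 0.25) in PH-failure and 0.01 (SE 0.15, interval -0.31 to 0.33) in PH-healthy ventricles, and their signs turned with the scaling. TPI1, PGK1 (phosphoglycerate kinase) and ENO3 lay at 405 to 588, 253 to 411 and 635 to 1255 RPKM over all 12 libraries and their groups overlapped with low PAP.

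Phosphoglycerate mutase, the next enzyme, showed the largest fall of the set. PGAM2 (chromosome 22, 370971 to 373326; ENSBTAG00000014547), the muscle form, had 270.1, 369 and 451 RPKM as the lowest, median and highest at low PAP. It had 150.1, 154 and 194 RPKM in PH-healthy and 263, 164 and 153 RPKM in PH-failure replicates. Every PH ventricle lay below every low-PAP one, with PH-failure replicate 1 only just below the lowest. Its level fell to 0.472 times that of low PAP in PH-healthy (log2 fold change -1.08, SE 0.20, limma adjusted p = 0.00257, kept in all 23 alternatives). In PH-failure it was 0.535 times the low-PAP level (-0.90, SE 0.20, adjusted p = 0.00737, kept in each alternative without a replicate block). The 9 skeletal muscle markers with a row (of 10) summed to 2700.3 to 3668 RPKM at low PAP, 1654 to 2525 in PH-healthy and 954 to 2970.3 in PH-failure libraries. Of these, 6 (MYH1, MYH2, TNNI2, MYLPF, ATP2A1 and MYBPC1) were under 1 RPKM in every library, so the sum rests on the few others. The mean log2(RPKM + 1) of the list overlapped between the groups, at 1.48 to 1.68, 1.51 to 1.54 and 1.29 to 1.62. The sum is thus no measure of the list as a whole. The summed atrial markers, nearly all MYL7, were like PGAM2 lower in every PH library than in every low-PAP library. No other atrial marker was lower in this way, and the part of atrial muscle in the fall of PGAM2 was not tested. The widespread form PGAM1 had 128, 150.4 and 188 RPKM as the lowest, median and highest at low PAP, 189, 192 and 155 RPKM in PH-healthy and 190.5, 203 and 171 RPKM in PH-failure replicates. The groups overlapped, and PGAM1 did not pass the test (adjusted p = 0.0890 in PH-failure and 0.205 in PH-healthy).

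Pyruvate kinase makes the pyruvate and the last ATP of the pathway. PKM2 (chromosome 10, 18965983 to 18992445; ENSBTAG00000001601) had 166, 199 and 238 RPKM as the lowest, median and highest at low PAP, 272, 246 and 268 RPKM in PH-healthy and 305, 254 and 299.9 RPKM in PH-failure replicates. All PH ventricles were above all low-PAP ones, by a small margin for PH-healthy replicate 2. The gene rose in PH-failure by a log2 fold change of 0.52 (SE 0.13, limma adjusted p = 0.0113; alternatives ranged from 0.00731 to 0.116) and in PH-healthy by 0.40 (SE 0.13, adjusted p = 0.0295; 0.0118 to 0.291). Both calls were lost with median-ratio scaling (adjusted p = 0.116 and 0.291), and that in PH-healthy also without any of its own replicates. Of 23 alternatives, 2 lost the PH-failure call and 9 the PH-healthy one.

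**Figure D3:**
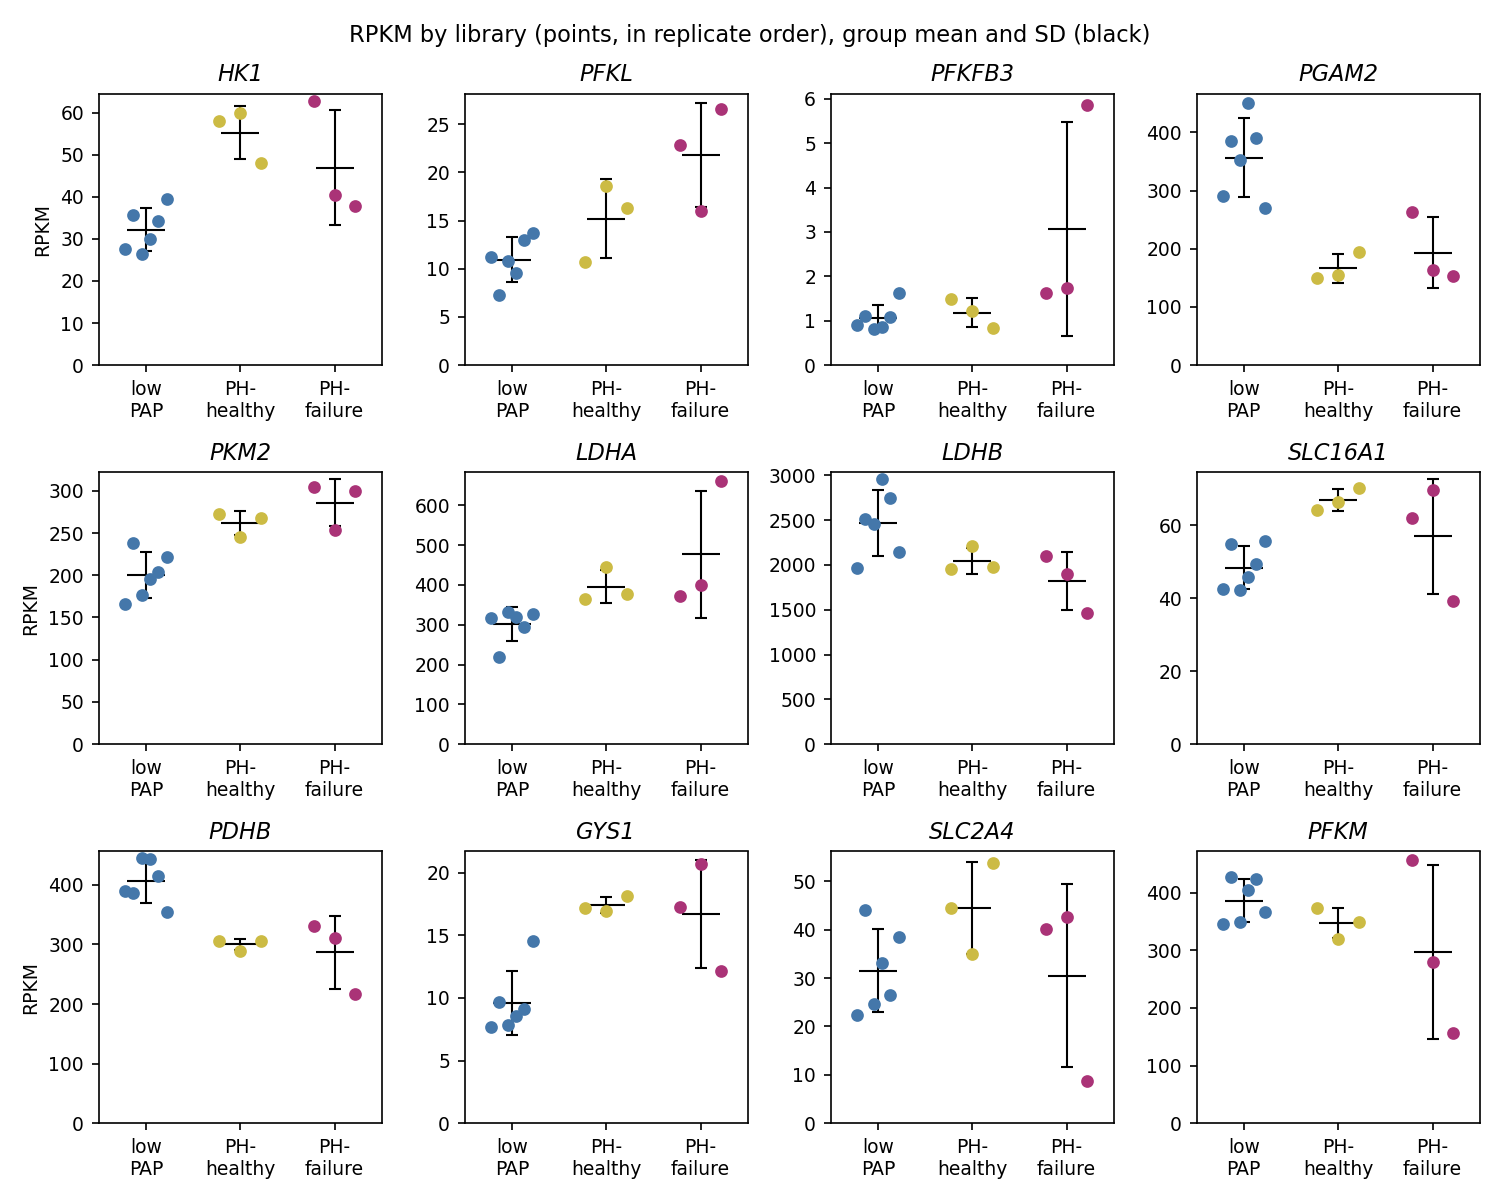
RPKM of the 10 genes changed in at least 1 PH group, and of SLC2A4 and PFKM, in each library (points, in replicate order), with the group mean and SD in black; every axis starts at 0. PGAM2 and PDHB lie lower in all 6 PH libraries than in any low-PAP library. The third PH-failure point lies far from the other PH-failure points for PFKFB3, LDHA and SLC2A4, while the PH-failure points of PFKM are all spread apart.

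Lactate dehydrogenase joins pyruvate and lactate. The A subunit, typical of skeletal muscle and hypoxic tissue, is encoded by LDHA (chromosome 29, 26543860 to 26554318; ENSBTAG00000008683), with 218, 319 and 333 RPKM as the lowest, median and highest at low PAP. It had 366, 444 and 378 RPKM in PH-healthy and 372, 399 and 661 RPKM in PH-failure replicates. All PH ventricles were above all low-PAP ones, and PH-failure replicate 3 was the highest by far. LDHA rose in PH-failure by a log2 fold change of 0.62 (SE 0.19, limma adjusted p = 0.0241), a call lost without replicate 3 (0.37, adjusted p = 0.126) and with median-ratio scaling (adjusted p = 0.207; alternatives ranged from 0.0114 to 0.207). The adipocyte score (adjusted p = 0.0612) or the replicate number (0.0771) as a term also ended it. In PH-healthy ventricles LDHA did not pass (0.40, SE 0.19, adjusted p = 0.109) although the groups did not overlap. It passed in 3 of 23 alternatives, among them quantile normalization (0.65, adjusted p = 0.0150; alternatives ranged up to 0.564).

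The B subunit, LDHB (chromosome 5, 88962678 to 88981219; ENSBTAG00000019603), had 1965, 2486 and 2956 RPKM as the lowest, median and highest at low PAP, 1950.2, 2216 and 1972 RPKM in PH-healthy and 2099, 1904 and 1460 RPKM in PH-failure replicates. Both PH groups overlapped with low PAP. LDHB fell in PH-failure by 0.44 on the log2 scale (SE 0.15, limma adjusted p = 0.0443), and 14 of 23 alternatives lost the call, among them a fit that leaves the third failing ventricle out (-0.29, adjusted p = 0.198; alternatives ranged from 0.0158 to 0.222). In PH-healthy ventricles its log2 fold change was -0.26 (SE 0.15, adjusted p = 0.208).

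Lactate and pyruvate cross the cell membrane through monocarboxylate carriers. SLC16A1 (MCT1; chromosome 3, 30533844 to 30563298; ENSBTAG00000015107), the main lactate importer of heart muscle, had 42.2, 47.7 and 55.6 RPKM as the lowest, median and highest at low PAP. It had 64.2, 66.4 and 70.2 RPKM in PH-healthy and 61.9, 69.8 and 39.4 RPKM in PH-failure replicates. All PH-healthy and the first 2 failing ventricles were above low PAP, and PH-failure replicate 3 was below it. The rise in PH-healthy (log2 fold change 0.47, SE 0.16, limma adjusted p = 0.0393) was lost in 13 of 23 alternatives (0.00808 to 0.337), the adipocyte score as a term and leaving out any PH-healthy replicate included. In PH-failure the log2 fold change was 0.20 (SE 0.16, adjusted p = 0.340). SLC16A3 (MCT4), the lactate exporter of glycolytic cells, was not tested because only 2 libraries reached 1 RPKM. It had 0.418, 0.630 and 0.935 RPKM as the lowest, median and highest at low PAP, 0.764, 1.04 and 0.490 RPKM in PH-healthy and 0.972, 0.620 and 2.63 RPKM in PH-failure replicates, the last from 170 reads.

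Pyruvate dehydrogenase turns pyruvate into acetyl-CoA inside mitochondria, and 1 of the 8 tested genes around it changed. PDHB (chromosome 22, 43461213 to 43466626; ENSBTAG00000021724), the E1 beta subunit, had 354, 403 and 445 RPKM as the lowest, median and highest at low PAP. It had 306, 289 and 306 RPKM in PH-healthy and 332, 311 and 217 RPKM in PH-failure replicates. Every PH ventricle was below every low-PAP one, and PH-failure replicate 3 was the lowest. The summed atrial markers, nearly all MYL7, were also lower in every PH library, and their part here was not tested. PDHB fell in PH-failure by 0.52 on the log2 scale (SE 0.14, limma adjusted p = 0.0150), and leaving out PH-failure replicate 3 ended the call (-0.33, adjusted p = 0.0700; alternatives ranged from 0.00800 to 0.0913). A replicate block also ended it (adjusted p = 0.0913). PDHB fell in PH-healthy ventricles by 0.43 (SE 0.14, adjusted p = 0.0290), and was lost in 9 of 23 alternatives, with -0.19 after quantile normalization (adjusted p = 0.259; 0.00728 to 0.259). The alpha subunit PDHA1, encoded on the X chromosome, had 143 to 268 RPKM at low PAP, 187 to 242 in PH-healthy and 136 to 233 in PH-failure libraries and did not pass.

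The 4 kinases that inactivate the complex and the phosphatase PDP1 did not pass in either comparison. PDK4, which fasting and fatty acids induce, had the widest error of all 32 tested genes. Its lowest, median and highest level at low PAP was 73.2, 101.6 and 336 RPKM, with 265 and 336 RPKM in replicates 2 and 6 and 73.2 to 102.0 RPKM in the other 4. PH-healthy replicates had 144, 29.7 and 138 RPKM, and PH-failure replicates 68.0, 109 and 459 RPKM. No group stood apart, and the SE of the log2 fold change, 0.69 in both comparisons, exceeded the value itself (0.16 in PH-failure and -0.68 in PH-healthy). PDK2, the other main kinase of heart, had 16.9, 20.2 and 24.8 RPKM as the lowest, median and highest at low PAP, 23.6, 24.1 and 19.2 RPKM in PH-healthy and 25.5, 21.8 and 12.3 RPKM in PH-failure replicates. PDK1 and PDK3 lay at 9.10 to 15.9 and 5.92 to 10.04 RPKM over all libraries, PDP1 at 5.35 to 16.4 and PC at 0.443 to 1.53 RPKM.

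Glycogen is the heart's store of glucose. Glycogen synthase of muscle, GYS1 (chromosome 18, 55996078 to 56012727; ENSBTAG00000039958), had 7.65, 8.85 and 14.6 RPKM as the lowest, median and highest at low PAP. PH-healthy replicates had 17.2, 16.9 and 18.2 RPKM, and PH-failure replicates 17.2, 20.7 and 12.1 RPKM. Low-PAP replicate 6 had 14.6 RPKM and the other low-PAP libraries 7.65 to 9.69, so that PH-failure replicate 3 overlapped with that replicate alone. GYS1 rose 1.78-fold in PH-healthy (log2 fold change 0.83, SE 0.19, limma adjusted p = 0.00704), a call that ended once the adipocyte score entered the model (0.64, adjusted p = 0.0897; alternatives ranged from 0.00100 to 0.0897). In PH-failure it rose 1.67-fold (0.74, SE 0.19, adjusted p = 0.0130) and missed the threshold after quantile normalization, with median-ratio scaling and without PH-failure replicate 2 (adjusted p = 0.0533, 0.0536 and 0.0618; alternatives ranged from 0.00188 to 0.0618). Glycogen phosphorylase of muscle, PYGM, which frees glucose 1-phosphate from the store, had 107, 133 and 150 RPKM as the lowest, median and highest at low PAP, 122, 135 and 121 RPKM in PH-healthy and 159, 117 and 76.0 RPKM in PH-failure replicates, with groups that overlapped. PGM1, which joins glucose 1-phosphate and glucose 6-phosphate, lay at 38.8 to 58.9 RPKM over all libraries and did not pass.

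Ratios of 2 genes within a library do not change when the library is multiplied by a factor, though quantile normalization can change them, and 11 pairs, most of them forms of the same enzyme, were compared with 2-sided exact permutation tests. Against low PAP there were 22 tests, with 84 regroupings and a smallest possible p of 0.0119. In PH-failure 6 of 11 ratios passed and in PH-healthy 2 of 11, all at that smallest p (adjusted p = 0.0327). Ratios of other gene pairs were not computed, so these counts have no background and are no result about the set. Of single genes, 22.3% of all tested did not overlap with low PAP in PH-failure and 34.3% in PH-healthy. PGAM1 made up 28.0 to 33.7% of summed PGAM1 and PGAM2 RPKM at low PAP, 55.7, 55.5 and 44.3% in PH-healthy and 42.0, 55.3 and 52.8% in PH-failure replicates. No PH library came near the low-PAP range, and the log2 ratio was 1.30 higher in PH-healthy and 1.20 higher in PH-failure ventricles. LDHA made up 7.99 to 13.9% of summed LDHA and LDHB at low PAP, 15.8, 16.7 and 16.1% in PH-healthy and 15.1, 17.3 and 31.2% in PH-failure replicates. Its log2 ratio to LDHB was 1.07 higher in PH-failure, and 0.66 higher in PH-healthy ventricles (exact permutation p = 0.0238, adjusted 0.0582).

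PFKL made up 1.68 to 3.60% of summed PFKL and PFKM at low PAP, 2.78, 5.49 and 4.46% in PH-healthy and 4.77, 5.40 and 14.6% in PH-failure replicates. PFKP made up 1.64 to 3.63% of summed PFKP and PFKM at low PAP, 5.65, 6.42 and 3.34% in PH-healthy and 6.48, 4.29 and 8.94% in PH-failure replicates. Failing ventricles thus lay above all low-PAP ones for both shares, with log2 ratios 1.498 (PFKL) and 1.32 (PFKP) higher. Both ratios have PFKM as their second gene and so are not independent of each other. The level of PFKP itself overlapped with low PAP and did not pass. In PH-healthy ventricles these differences were 0.61 (exact permutation p = 0.107, adjusted 0.214) and 0.96 (p = 0.0357, adjusted 0.0786). PFKFB3 made up 2.29 to 3.36% of summed PFKFB3 and PFKFB2 at low PAP, 2.87, 3.81 and 1.78% in PH-healthy and 4.25, 3.74 and 18.3% in PH-failure replicates. Its log2 ratio was 1.41 higher in PH-failure, with replicate 3 far above the rest, and 0.60 higher without that replicate. Without it the differences for PFKL and LDHA were 0.94 and 0.66. With any PH-failure library left out, 28 regroupings give no p below 0.0357, and no ratio passed after adjustment over the 22 tests. GYS1, set against the enzyme that breaks glycogen down, made up 5.48 to 9.77% of summed GYS1 and PYGM at low PAP, 12.4, 11.1 and 13.1% in PH-healthy and 9.79, 15.1 and 13.8% in PH-failure replicates. All PH libraries were above low PAP, PH-failure replicate 1 by the smallest margin, and the log2 ratio was 1.04 higher in PH-failure and 0.97 higher in PH-healthy.

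Ratios of the glucose carriers, hexokinases, aldolases, monocarboxylate carriers and PDK kinases did not pass. Their shares overlapped with low PAP in both comparisons. SLC2A1 made up 3.49 to 10.5% of summed SLC2A1 and SLC2A4 at low PAP and 22.1% in PH-failure replicate 3. HK1 made up 99.4 to 99.7% of HK1 and HK2 at low PAP and 97.5% in that library. SLC16A3 made up 0.900 to 1.91% of SLC16A3 and SLC16A1 at low PAP and 6.25% there, and in these 3 pairs it was the farthest of the 3 failing ventricles from the low-PAP mean. PDK4 made up 81.0 to 93.1% of PDK4 and PDK2 at low PAP and 72.7, 83.3 and 97.4% in the PH-failure replicates, which lay below, inside and above that range. Within series 55 and 56 the 6 ratios that passed in PH-failure were all higher than at low PAP, by 0.95 to 2.96 and 0.66 to 1.39 on the log2 scale, with 1 failing ventricle in series 55. Their groups do not overlap, so this direction was fixed by the full comparison and is no check on the series.

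**Figure D4:**
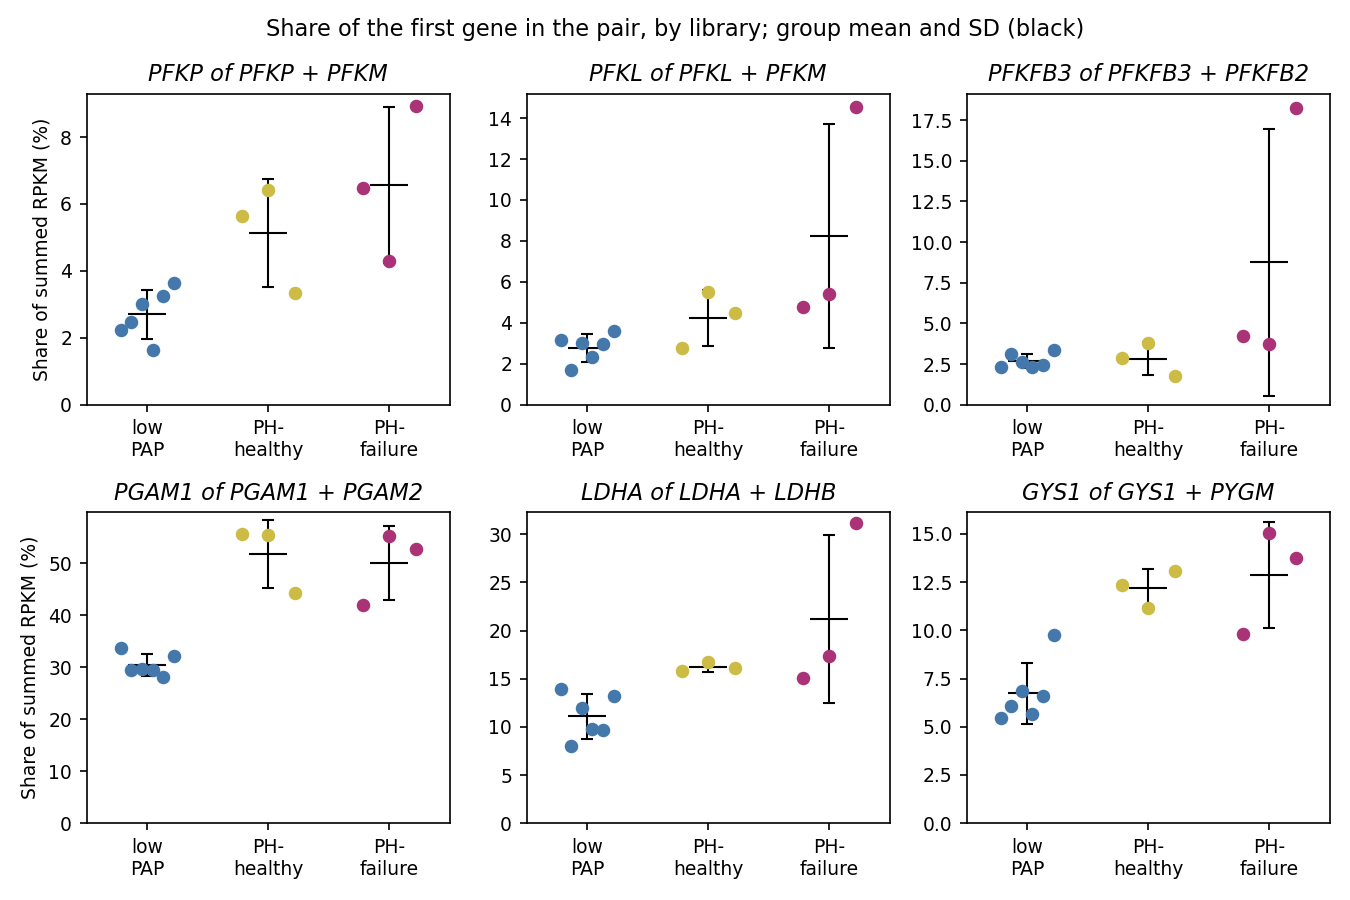
Share of the first gene in the summed RPKM of each of the 6 pairs that passed in PH-failure, in percent, for each library (points, in replicate order), with the group mean and SD in black; every axis starts at 0. PH-failure points lie above all low-PAP points in each panel, and PH-failure replicate 3 is far above the rest for PFKL, PFKFB3 and LDHA.

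Between PH-failure and PH-healthy ventricles none of the 32 genes passed limma's test at an adjusted p of 0.05, and 1 of them, PFKFB3, had an unadjusted p under 0.05. The background is 0.00879% of all tested genes, which is 1 gene. PFKFB3 was 0.76 higher on the log2 scale in PH-failure (SE 0.29, 95% interval 0.13 to 1.40, limma adjusted p = 0.9995). Intervals for the other genes were wide, such as -0.03 to 1.03 for PFKL (0.50, SE 0.24), -1.78 to 0.19 for SLC2A4 (-0.79, SE 0.46) and -0.89 to 2.56 for PDK4 (0.83, SE 0.79), so differences of that size cannot be told from none with 3 animals a group. Groups did not overlap for 2 of 32 genes (6.25%), PFKFB3 and TPI1, against 5.74% of all tested genes. Both lay higher in PH-failure and 0 lower, where 3.61% and 2.13% of all tested genes did. The TPI1 groups were separated by 497 and 499 RPKM. None of the 11 pair ratios passed, where 3 against 3 animals allow no exact permutation p below 0.1.

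Of the wider pathway, 150 further genes in 8 lists were counted, of which 143 have a row and 117 were tested. Failing ventricles had 37 higher and 4 lower than at low PAP, and in PH-healthy 32 were higher and 4 lower. These are 31.6% and 27.4% higher and 3.42% lower in each, near the 28.0% and 26.6% higher and the 5.79% and 8.15% lower among all tested genes. After quantile normalization these were 17 and 10, and 20 and 7. For this and the other alternatives, here and in the lists below, the shares of all tested genes are not given. Those counts thus have no background. Leaving out PH-failure replicate 3 gave 14 higher and 0 lower, where 2 failing ventricles are left. The PH-failure count was 26 or 27 when PH-failure replicate 2 or 1 of the low-PAP replicates 1, 3 and 4 was left out, and the PH-healthy count 18 and 21 without its replicates 1 and 3. None passed between PH-failure and PH-healthy. Sums of fibroblast, macrophage and endothelial markers, given above, also had their highest values in PH-failure libraries, and their part in these counts was not tested.

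Among 13 tested genes of other glucose carriers and their trafficking, 6 were higher in PH-failure and 4 in PH-healthy, and none lower, or 46.2% and 30.8% against 28.0% and 26.6% of all tested genes (after quantile normalization 2 and 3 higher, and 0 and 1 lower). The median log2 fold change was 0.43 and 0.30, against 0.21 and 0.18 in all tested genes. SLC2A3 (GLUT3), a carrier of high affinity, averaged 11.3 ± 3.33 RPKM at low PAP (SD, n = 6), 25.5 ± 7.73 in PH-healthy and 29.98 ± 10.04 in PH-failure ventricles (n = 3 each). All PH values lay above all low-PAP ones, with log2 fold changes of 1.11 (SE 0.24, limma adjusted p = 0.00607) and 1.32 (SE 0.24, adjusted p = 0.00343). LNPEP, the aminopeptidase that travels in GLUT4 vesicles, averaged 4.77 ± 2.53, 16.3 ± 3.83 and 13.7 ± 5.98 RPKM at low PAP, in PH-healthy and in PH-failure. Its PH-healthy values all lay above low PAP, and its PH-failure values overlapped with low PAP. SORT1, a sorting receptor of these vesicles, averaged 4.92 ± 2.22, 9.72 ± 1.29 and 10.7 ± 3.99 RPKM. Both PH groups overlapped with low PAP for SORT1. After quantile normalization neither of its calls was kept (limma adjusted p = 0.0680 in PH-healthy and 0.0610 in PH-failure).

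Of 23 tested genes of glycogen other than those above, 8 were higher in PH-failure and 7 in PH-healthy, with 0 and 1 lower. The shares higher, 34.8% and 30.4%, lay near the 28.0% and 26.6% of all tested genes (5 higher and 0 lower in each after quantile normalization). The median log2 fold changes, 0.15 and 0.23, lay near those of all genes. GYG1 (glycogenin, the primer of glycogen) averaged 83.4 ± 14.2 RPKM at low PAP, 177 ± 44.5 in PH-healthy and 154 ± 16.7 in PH-failure. GAA, the glucosidase of lysosomes, averaged 2.54 ± 0.735, 5.36 ± 0.635 and 5.25 ± 0.380 RPKM, and GSK3B, a kinase that inhibits glycogen synthase, 3.91 ± 1.25, 10.1 ± 0.932 and 9.32 ± 2.77 RPKM. These 3 genes were higher in every PH library than in every low-PAP library, and they act in making as well as in breaking down glycogen.

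Among 10 tested genes of other glycolytic enzymes and sugar phosphate control, 4 were higher (40.0%) and 1 lower in each PH group (0 and 3 after quantile normalization in PH-failure, 1 and 1 in PH-healthy). Among all tested genes 28.0% rose in PH-failure and 26.6% in PH-healthy, and 5.79% and 8.15% fell. The list's shares lay above these, but rest on 4 genes and 1 gene, and the difference was not tested. ADPGK, a glucokinase that uses ADP, averaged 2.61 ± 0.577, 3.99 ± 0.652 and 4.54 ± 0.463 RPKM, and TIGAR, which lowers fructose 2,6-bisphosphate, 1.32 ± 0.565, 3.24 ± 0.428 and 2.28 ± 0.544 RPKM. Of 18 genes of the pentose phosphate and hexosamine branches, 6 were higher in PH-failure (33.3%) and 4 in PH-healthy (22.2%), and 0 lower (3 and 2 higher, 0 and 1 lower after quantile normalization). The shares higher lay near those of all tested genes. H6PD averaged 1.01 ± 0.418, 3.16 ± 0.468 and 2.89 ± 0.764 RPKM, and GFPT1, the entry enzyme of hexosamine synthesis, 3.22 ± 1.12, 8.05 ± 0.922 and 7.58 ± 3.64 RPKM. Their medians, 0.19 and 0.17, were close to the medians of all genes.

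Of 15 other lactate and pyruvate genes, 1 was higher (6.67%) and 1 lower in PH-failure and 2 were higher in PH-healthy (13.3%) (0 and 2, and 1 and 1, after quantile normalization). Both shares higher lay below the 28.0% and 26.6% of all tested genes. The share lower in PH-failure, 6.67%, lay near the 5.79% of all tested genes. PDPR, the regulatory subunit of pyruvate dehydrogenase phosphatase, averaged 4.31 ± 2.03 RPKM at low PAP, 10.3 ± 1.34 in PH-healthy and 8.33 ± 1.71 in PH-failure and was higher in both. Of 7 NADH shuttle genes, which carry reducing power from glycolysis into mitochondria, 2 were lower in PH-failure and 0 changed in PH-healthy (1 and 0 after quantile normalization). The share lower in PH-failure was 28.6%, against 5.79% of all tested genes, and rests on 2 genes. SLC25A12, the aspartate and glutamate carrier of muscle, averaged 56.8 ± 6.40, 41.3 ± 8.59 and 35.8 ± 12.7 RPKM, and GOT1, the cytosolic aspartate aminotransferase, 239.8 ± 17.9, 206 ± 19.8 and 182 ± 50.5 RPKM. Of 5 gluconeogenic genes, FBP2, the muscle fructose bisphosphatase, was lower in PH-healthy ventricles (0.804 ± 0.453 against 5.15 ± 2.85 RPKM), and 0 changed in PH-failure (1 lower in each after quantile normalization).

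Regulators of glucose use were higher in 12 of 26 tested genes in PH-failure and in 11 in PH-healthy, with 0 and 1 lower. The shares higher were 46.2% and 42.3%, against 28.0% and 26.6% of all tested genes, and the shares lower 0 and 3.85% against 5.79% and 8.15% (7 and 8 higher, 3 and 2 lower after quantile normalization). Their median log2 fold changes were 0.53 and 0.41, those of all tested genes 0.21 and 0.18, and after quantile normalization the list had 0.29 and 0.30. PPARD, a nuclear receptor that senses fatty acids, averaged 2.46 ± 0.623 RPKM at low PAP, 5.90 ± 0.583 in PH-healthy and 5.75 ± 0.463 in PH-failure, with no overlap. ESRRG, a nuclear receptor of mitochondrial genes, averaged 1.99 ± 0.765, 5.52 ± 1.42 and 4.56 ± 0.858 RPKM. PRKAG2, the heart's gamma subunit of the AMP-activated kinase, averaged 20.8 ± 3.13, 37.4 ± 5.24 and 31.1 ± 4.97 RPKM, and AKT1, a kinase of insulin signalling, 50.9 ± 8.79, 79.4 ± 10.7 and 75.3 ± 3.06 RPKM. Each of these 4 was higher in all 6 PH libraries than in all 6 low-PAP libraries.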

How the data were processed

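Per the labels' protocols, RNA of the right ventricle was taken up in Trizol and libraries followed Illumina's standard procedure. The deposited values are RPKM per gene and library, per the file headers, with Ensembl identifiers, symbols and positions. The sources used here do not give the aligner, the genome build, whether strand was used or how reads matching several genes were counted, so close relatives within a family can share reads. The authors' own means, fold changes and p-values were not used. The genes, lists, pairs and tests were chosen with earlier results of these data known.

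For a repeated symbol (GAPDH, PGAM1) the row of highest mean was used, and the second row was 0 in every library. A gene was tested where 3 or more libraries reached 1 RPKM (11374 of 17284 above 0). Values as log2(RPKM + 1) entered limma 3.58.1 (R 4.3.3, statmod 1.5.0), with a trend of the variance and robust moderation, in 1 model of 3 groups without covariates, with Benjamini-Hochberg adjustment over all tested genes and a threshold of 0.05. Fold changes on this scale understate those of low genes. There were 3 comparisons. Whole reads were recovered from the steps of the RPKM values, within 0.05 reads for all 11374 tested genes, and were used for depth, for limma-voom as an alternative, and to report genes not tested. For an exon length of 1 kb, 3 reads equal 0.0965 to 0.204 RPKM. Depth limits counting error only, and p-values rest on 1 library per animal. The fit and the recovery of reads were tested on simulated data. Alternatives were another filter, pseudocount 0.1, 3 other scalings, limma-voom, the series of the library name, the adipocyte score or the replicate number as a term, fits of only the groups compared, and leaving out each library.

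All genes of the set are accounted for by role, with values in every group for changed genes, genes of tested pairs and SLC2A1, SLC2A4, HK2, PFKM, GAPDH, LDHA, LDHB and PDK4. Of 12 pairs listed, ENO1 with ENO3 could not be computed. Pathway lists are given by counts and medians, with up to 4 changed genes of smallest p per list and comparison eligible to be named. Marker scores are means of log2(RPKM + 1). Tables and permutation tests used pandas 2.3.3 and numpy 2.4.6 under Python 3.11.15, and plots matplotlib 3.10.9.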

Additional observations from a re-analysis of the deposited data

Results flagged for a closer look

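Of the 35 genes, 7 had a low-PAP library whose gap to the nearest other library was above Dixon's 95% critical value as a share of the group's range. Chance gives about 1 in 20 for normally distributed values, and RPKM was not shown to be so. The share of all tested genes is not given, so this count is no result about the set. Low-PAP replicate 6 was the highest for HK2 (0.253 RPKM), PFKFB3 (1.62 RPKM) and GYS1 (14.6 RPKM). Low-PAP replicate 5 was the highest for PFKFB1 (0.158 RPKM, from 9 reads) and PC (1.48 RPKM), low-PAP replicate 1 for ALDOC (3.42 RPKM), and low-PAP replicate 2 was the lowest for LDHA (218 RPKM). The PH groups have 3 libraries each and cannot be checked this way.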

How the results depend on the processing

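The count of changed genes kept within 1.5 times its value of 9 in PH-failure under all alternatives but 3, and of 6 in PH-healthy under all but 6. Quantile normalization left 5 in PH-failure, the adipocyte score as a term 5 and 2, and leaving out 1 library gave 6 to 10 in PH-failure and 3 to 8 in PH-healthy. Replicate numbers name different animals (same-numbered libraries correlated at -0.26 to 0.19), and with a replicate block 2 and 3 genes passed. Shares of all tested genes were not set beside these counts. Some genes that did not pass in the main fit passed in at least 1 alternative. For example, PFKP did in PH-failure and PH-healthy, and TPI1 and PDP1 in PH-healthy (lowest limma adjusted p = 0.0437, 0.0301, 0.0379 and 0.0209). No gene passed between PH-failure and PH-healthy under any alternative run. Of the pair ratios, 8 passed over both comparisons, 8 with a pseudocount, and 0 to 9 without 1 library. The 0 arose without any PH-failure library, where the adjustment spans both comparisons and 28 regroupings allow no p below 0.0357.

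Values that turned sign belong to genes or ratios that did not pass, and ranges below are over leaving out each library in turn. GAPDH in PH-failure was 0.15 after quantile normalization (range -0.26 to 0.027). In PH-healthy it was -0.23 with median-ratio and -0.058 with non-mitochondrial scaling (range -0.086 to 0.12). PDK4 in PH-failure was -0.11 with median-ratio scaling (range -0.64 to 0.73), and in PH-healthy it ranged from -1.06 to 0.061. SLC16A1 in PH-failure was -0.067 with median-ratio scaling. With the adipocyte score in the model SLC2A4 was 0.028 in PH-failure, -0.066 in PH-healthy and 0.094 between the PH groups, and PFKL -0.00332 between them. SLC2A4 in PH-failure ranged from -0.67 to 0.42. PFKFB3 in PH-healthy was -0.17 with quantile normalization and -0.0438 with median-ratio scaling (range -0.021 to 0.20), and PFKM in PH-healthy 0.099 after quantile normalization.

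Log2 ratios in PH-failure ranged from -0.45 to 0.97 for SLC2A1/SLC2A4, -0.20 to 1.25 for SLC16A3/SLC16A1 and -0.89 to 1.01 for PDK4/PDK2, each lowest without PH-failure replicate 3. In PH-healthy they ranged from -0.24 to 0.32 for PFKFB3/PFKFB2, -0.018 to 0.35 for HK1/HK2, -0.69 to 0.17 for ALDOC/ALDOA and -0.57 to 0.00711 for SLC16A3/SLC16A1. With a pseudocount of 1, HK1/HK2 was 0.18 in PH-failure and PFKFB3/PFKFB2 -0.052 in PH-healthy. The causes were not tested. With 3 animals in each PH group, small differences cannot be seen, and HK2, PFKFB1 and SLC16A3 were too low to be tested.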
